A study of Mus musculus with 7 samples.

Results

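The genes described here are those of the mouse proteasome, the protease complex that degrades ubiquitin-marked proteins, in ribosome profiling of skin epidermis with and without Pelota. Ribosome profiling sequences the stretch of mRNA covered by a ribosome, so counts over a coding region reflect how many ribosomes were on it. Members were all genes in the deposited footprint table whose symbol starts with Psm, one of the letters a to f and a digit. This gave 44 genes of 13163 named transcripts, and no symbol occurred more than once. The groups were primary epidermis of wild-type mice (WT) and of mice with a transgenic knockout (KO) of Pelo, which encodes the ribosome rescue factor Pelota, with 2 ribosome profiling libraries each. The labels give no strain, age, deleted exon or Cre driver, so the cells in which Pelo was removed are not stated. RNA-seq libraries are labelled too (2 of KO, 1 of WT) but were not analysed here. Changes in mRNA level and in ribosomes per mRNA therefore cannot be told apart below.

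The proteasome consists of a barrel, the 20S core, and caps that feed it. The core stacks rings of alpha subunits, which gate the entrance, around rings of beta subunits, of which Psmb5, Psmb6 and Psmb7 carry the constitutive proteolytic sites. In immune cells and in cells exposed to interferon, Psmb8, Psmb9 and Psmb10 take their places and form the immunoproteasome, known for producing peptides for MHC class I. The 19S cap binds, unfolds and deubiquitinates substrates with a ring of ATPases (Psmc genes) and a set of non-ATPase subunits (most Psmd genes), while the Psme genes encode other caps.

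Between 4221429 and 5281874 coding footprints were counted per library. The 44 members held 0.511% and 0.512% of them in KO and 0.445% and 0.406% in WT, with a median of 363 to 585 footprints per member. The Pelo coding region had 24 and 21 counts in the KO libraries and 101 and 61 in WT (log2 change −1.65, SE 0.245, edgeR adjusted p = 0.000807). Keratinocyte markers were abundant in all 4 libraries, but 8 dermal fibroblast markers together held a share of 3.91% and 4.44% in KO, compared with 8.30% and 12.5% in WT. Of these 8, 4 were called lower (Col1a1, Col1a2, Col3a1 and Dcn, which hold most of the sum), while Lum (−0.39), Pdgfra (−0.14), Mmp2 (−0.095) and Fbln1 (−0.015) were not called. The 6 cornified-layer markers were all called higher, at 1.49% and 1.41% in KO against 0.444% and 0.372% in WT. Whether these marker differences have a part in the results below was not tested. In bulk tissue, fewer cells of a type and less RNA per cell cannot be told apart. Whether replicates are separate animals is not stated, so the p-values reflect only how far these libraries differ from each other, which may be technical.

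Footprints on constitutive core and 19S genes rose in KO, while those on all 3 immunosubunit genes fell. All 44 members had enough counts to be tested, and at an edgeR adjusted p under 0.05 KO had 28 of them higher and 3 lower. Across the 10951 transcripts tested, 39.0% were called, 19.9% higher and 19.1% lower. Of the 31 genes for constitutive 20S and 19S subunits, 26 were called higher, none was called lower, and their log2 changes ran from 0.16 to 0.90 with a median of 0.55. The median of all transcripts was −0.02, and the central range from the 10th to the 90th percentile ran from −0.82 to 0.82. The changes were thus moderate in size for this table but lay on one side: in all 31, both KO libraries were above both WT libraries, as in 35.4% of all transcripts. Values in CPM below are coding footprint counts relative to library size, as edgeR's cpm gives them after scaling by trimmed mean of M-values (TMM), and errors are SD with n = 2 per genotype. Scaled to library totals alone, the median of all transcripts moved by −0.17, the split over all transcripts went from 2183 higher and 2092 lower to 1522 and 2985, and members were called higher in 19 and lower in 4. All directions given here are relative to the TMM scaling.

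**Figure D1:**
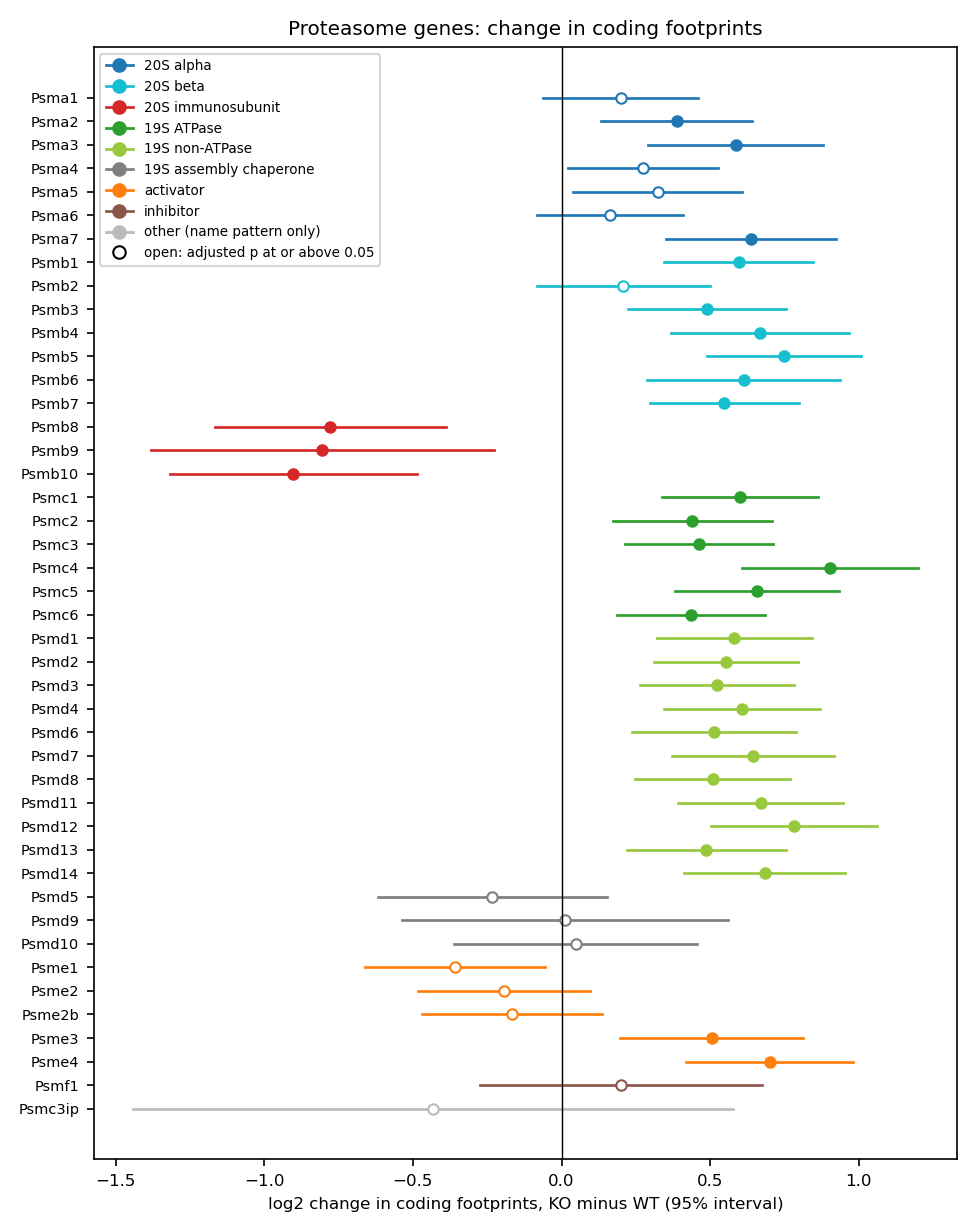
Log2 change in coding footprints (KO minus WT) of each of the 44 members with its 95% interval, coloured by role; filled points have an edgeR adjusted p under 0.05. The 31 constitutive 20S and 19S subunits lie between 0.16 and 0.90, the 3 immunosubunits between −0.90 and −0.78, and the 3 assembly chaperones near 0.

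Among the 7 alpha subunits, which form the gated outer rings, 3 were called higher and 4 were not called, with a median log2 change of 0.32. Psma7 had 146 and 156 CPM in KO and 105 and 88.6 in WT (log2 change 0.64, SE 0.127, edgeR adjusted p = 0.00389). Psma3 had 104 and 124 CPM in KO against 76.8 and 74.9 in WT, a log2 change of 0.59. For these 2 genes both KO libraries were above both WT libraries, as in 35.4% of all transcripts. Psma2 stood at 144 and 138 CPM against 107 and 109, a log2 change of 0.39 (edgeR adjusted p = 0.0233). The smallest difference was that of Psma6, the most densely covered alpha gene, with 165 CPM in both KO libraries and 148 and 147 in WT. Its log2 change of 0.16 had a 95% interval from −0.08 to 0.41, which includes the change of Psma2. Psma1 (135 and 124 CPM against 114 and 112), Psma4 (142 and 139 against 117 and 115) and Psma5 (94.7 and 86.5 against 76.2 and 68.4) also had higher values in both KO libraries without passing the test. Psma2 lost its call without KO replicate 1 (0.36), without WT replicate 1 (0.37), without WT replicate 2 (0.40), with DESeq2 (0.40) and with library totals (0.22). With library totals Psma6 stood at −0.0053.

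Of the 7 constitutive beta subunits, 6 were called higher and 1 was not called, with a median log2 change of 0.60. Psmb5, which carries the chymotrypsin-like site targeted by proteasome inhibitor drugs such as bortezomib, rose most. Its KO libraries stood at 172 and 161 CPM and its WT libraries at 97.0 and 101, with means of 167 ± 8.12 and 99.2 ± 3.11 (1.68-fold, log2 change 0.75, SE 0.115, edgeR adjusted p = 0.00098). Psmb6, with the caspase-like site, had 112 and 111 CPM in KO and 82.2 and 63.4 in WT, a log2 change of 0.61. Psmb7, with the trypsin-like site, had 182 and 180 CPM against 121 and 127, a log2 change of 0.55. All 3 catalytic genes thus had both KO libraries above both WT libraries, as in 35.4% of all transcripts. The WT libraries differed most from each other for Psmb6.

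The other 4 beta genes encode structural, non-catalytic subunits. Psmb4 had 186 and 172 CPM in KO against 124 and 101 in WT, a log2 change of 0.67. Psmb1 had 242 and 234 CPM against 153 and 162, a log2 change of 0.60, and was the most densely covered core gene in every library. Psmb3 followed with 170 and 154 CPM against 119 and 112, a log2 change of 0.49. Psmb2 was the beta gene not called, at 113 and 98.2 CPM in KO and 96.1 and 86.1 in WT (log2 change 0.21, 95% interval −0.08 to 0.50, edgeR adjusted p = 0.230). Without WT replicate 2, Psmb6 (0.45) and Psmb3 (0.45) lost their calls, and Psmb3 also did with library totals (0.32). Whether beta genes rose more than alpha genes was not tested.

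The 3 immunosubunit genes fell, by 1.71-fold to 1.87-fold, and in each both KO libraries were below both WT libraries, as in 36.5% of all transcripts. Psmb8, the counterpart of Psmb5, stood at 50.5 and 60.2 CPM in the KO libraries and at 110 and 79.4 in WT, with means of 55.4 ± 6.81 and 94.6 ± 21.4 (1.71-fold lower, log2 change −0.78, SE 0.173, edgeR adjusted p = 0.00678). Psmb10, the counterpart of Psmb7, had 20.1 CPM in both KO libraries and 43.3 and 31.4 in WT, a log2 change of −0.90 (SE 0.184, edgeR adjusted p = 0.00447). For both genes WT replicate 1 was the highest of the 4 libraries. Psmb9, the counterpart of Psmb6, had 24.1 and 35.5 CPM in KO against 64.7 and 38.2 in WT, a log2 change of −0.80 (SE 0.256, edgeR adjusted p = 0.0331). Here the groups nearly touched, as KO replicate 2 and WT replicate 2 differed by less than the 2 WT libraries did. Psmb9 lost its call without WT replicate 1 (−0.37), without KO replicate 1 (−0.55) and with unlisted counts set to 0 (−0.80), while Psmb8 and Psmb10 kept theirs when any 1 library was left out, at −0.98 to −0.53 and −1.10 to −0.65.

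Because an immunosubunit and its counterpart compete for the same position in the ring, their footprint densities were compared within each library, which removes library scaling. Density is coding footprints per nucleotide. The Psmb8 to Psmb5 ratio was 0.279 and 0.356 in KO and 1.08 and 0.747 in WT. In WT replicate 1, ribosomes thus covered Psmb8 as densely as Psmb5, whereas in KO the constitutive gene was well ahead. Psmb9 to Psmb6 was 0.235 and 0.35 in KO and 0.863 and 0.660 in WT. The Psmb10 to Psmb7 ratio was 0.112 and 0.113 in KO and 0.363 and 0.251 in WT. The 3 ratios were 2.84-fold, 2.63-fold and 2.68-fold lower in KO (log2 −1.51, −1.40 and −1.42), and in each both KO libraries were below both WT libraries. Each immunosubunit was lower and each counterpart higher in both KO libraries, so this separation had to follow. It restates the same counts and is no further evidence. A two-sided exact permutation test gave p = 0.333 for each of the 3, the smallest value that 2 against 2 libraries allow, so it cannot pass a threshold of 0.05. Leaving out any 1 library gave log2 differences from −1.77 to −1.11.

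As a share of each pair's density, which restates the ratios, Psmb8 made up 21.8% and 26.3% in KO and 51.9% and 42.7% in WT. Psmb9 made up 19% and 25.9% against 46.3% and 39.8%, and Psmb10 10.1% and 10.2% against 26.6% and 20.1%. Since the counterpart rose and the immunosubunit fell, the change in a pair's summed density had to lie between those of its parts. Psmb5 with Psmb8 was 1.16 times as dense in KO as in WT, Psmb6 with Psmb9 1.12 times and Psmb7 with Psmb10 1.25 times. For Psmb6 with Psmb9 the sums overlapped, at 211 and 228 CPM per kb in KO and 233 and 160 in WT. These are footprints, and the make-up of assembled proteasomes was not measured.

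**Figure D2:**
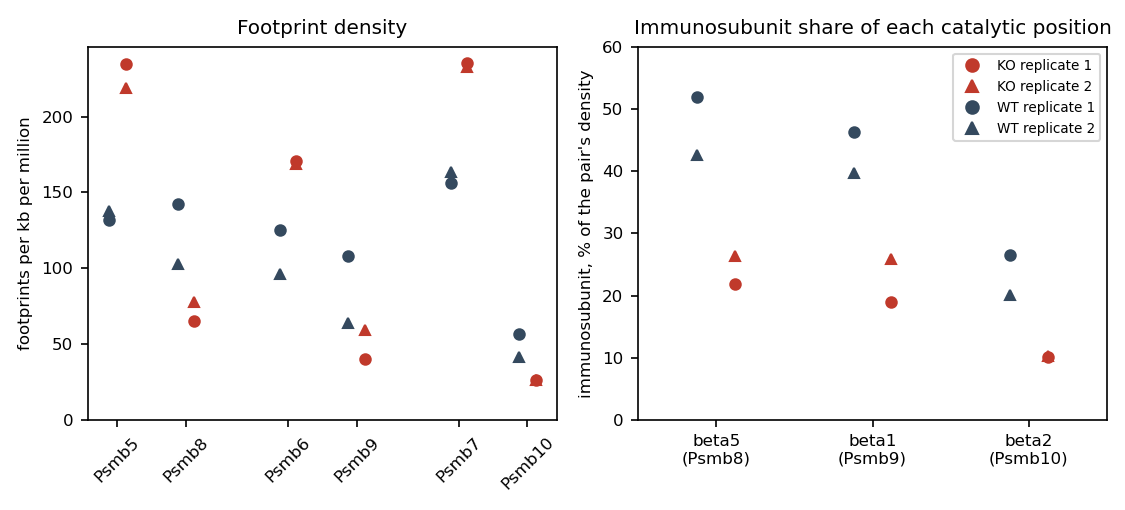
Left, TMM-scaled coding footprints (CPM per kb) of the 3 constitutive catalytic genes and their immunosubunit counterparts; right, the immunosubunit's percentage of the pair's density; circles are replicate 1 and triangles replicate 2. For all 3 pairs the KO libraries lie below the WT libraries in the right panel, at 10.1% to 26.3% against 20.1% to 51.9%.

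Promoter sequences, from RefSeq on GRCm38.p6, were found for 38 of the 44 members and cover 250 bases before to 50 bases after each start. Psmb1, Psmb2, Psmb7, Psmc3, Psmd3 and Psmd7 had no entry. They were searched on both strands for TGACNNNGC, the core of the antioxidant response element that Nfe2l1 and Nfe2l2 bind with small Maf proteins, since Nfe2l1 is known to drive proteasome genes when proteolysis falls short. They were also searched for 2 elements known from interferon-responsive genes, GAAANNGAA (an IRF core) and TTCNNNGAA (the GAS core). The windows below show a match in capitals with 10 bases on each side where the promoter extends that far, in the direction of transcription, for the constitutive catalytic genes, the Psme4 cap and the interferon-linked members.

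Psmb5: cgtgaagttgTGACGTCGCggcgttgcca
Psmb6: ctaaagagagTGACGGAGCgctttacgac
Psme4: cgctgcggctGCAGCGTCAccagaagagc
Psmb8: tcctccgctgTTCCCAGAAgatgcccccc
Psme1: gagctgtgctTTCGCTTTCccttcccgct

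The Psmb5 window lies at chr14:54618024-54618052 on the minus strand, with the match beginning 47 bases before the start. The Psmb6 window is chr11:70525338-70525366 on the plus strand, 9 bases before the start, and that of Psme4 is chr11:30771758-30771786 on the plus strand, 7 bases before the start, with the element in reverse orientation. All 3 genes were called higher in KO, as were 28 of all 44 members. Matches to the antioxidant element were present in 14.6% of the 41 member promoters (6) and in 12.4% of all 32851 promoters in the table, so the share was near that of promoters at large. The other matches were in Psmc6 and Psmd12, which rose, and in Psmd9, which did not pass the test. The GAS match of Psmb8 is at chr17:34198088-34198116 on the plus strand, 97 bases before the start, and the IRF match of Psme1 at chr14:55578494-55578522 on the plus strand, 11 bases after it and in reverse orientation. GAS cores were in 4.88% of member promoters and 8.30% of all, the other one in Psmd2, which rose. IRF cores were in 14.6% and 8.56%, the others in Psmb3, Psmb4, Psmc2, Psmd4 and Psmd9, none of them lower in KO. The promoters of Psmb9 and Psmb10 held none of these 3 motifs in the window searched, which says nothing of sites elsewhere.

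All 6 ATPase genes of the 19S ring, whose products unfold substrates and thread them into the core, were called higher, with a median log2 change of 0.53. Psmc4 rose most, from 71.9 and 80.3 CPM in WT to 153 and 131 in KO, or 76.1 ± 5.99 to 142 ± 15.2 (1.87-fold, log2 change 0.90, SE 0.131). In WT it was the least densely covered ATPase gene, at 60 and 67.1 CPM per kb of coding region, and in KO it stood at 128 and 110, within the range of the others. Psmc5 had 225 and 192 CPM in KO against 133 and 131 in WT, a log2 change of 0.66. Psmc1 had 117 and 112 CPM against 76.1 and 74.9, a log2 change of 0.60. The 3 smaller changes were those of Psmc3 (186 and 181 CPM against 132 and 135, log2 0.46), Psmc2 (209 and 184 against 149 and 141, log2 0.44) and Psmc6 (176 and 172 against 126 and 131, log2 0.44). Both KO libraries were above both WT libraries for all 6, as in 35.4% of all transcripts. Psmc2 lost its call without KO replicate 1 (0.35) and without WT replicate 2 (0.40), and Psmc6 without WT replicate 1 (0.40). With DESeq2, Psmc2 (adjusted p = 0.0534) and Psmc6 (adjusted p = 0.0537) just missed.

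All 11 non-ATPase subunits of the 19S cap were also called higher, within the narrow range of log2 0.49 to 0.78 and with a median of 0.58. Psmd12, a scaffold subunit of the lid, had 125 and 138 CPM in KO and 80.3 and 72.3 in WT (log2 change 0.78, SE 0.124, edgeR adjusted p = 0.00118). Psmd14, the deubiquitinase that removes ubiquitin chains from substrates, had 109 and 101 CPM against 64.6 and 66.6, a log2 change of 0.68. Psmd11, a lid subunit whose level is known to limit proteasome assembly in stem cells, had 135 and 126 CPM against 87.1 and 76.9, a log2 change of 0.67. In each of these the lower KO library was above the higher WT library by more than the replicates differed. By any margin, both KO libraries were above both WT libraries in 35.4% of all transcripts.

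The smallest changes were in 3 further lid subunits. Psmd13 had 131 and 119 CPM against 90.2 and 88.4 (log2 0.49), Psmd8 113 CPM in both KO libraries against 80.9 and 78.1 (0.51), and Psmd6 117 and 111 against 83.9 and 75.3 (0.51). Between these lay the ubiquitin receptor Psmd4 (0.61), the scaffold proteins Psmd1 (0.58) and Psmd2 (0.55), and Psmd7 (0.64) and Psmd3 (0.52) of the lid. Psmd6 lost its call without WT replicate 2 (0.44). With library totals, Psmc2 (0.27), Psmc3 (0.29), Psmc6 (0.27), Psmd6 (0.34), Psmd8 (0.34) and Psmd13 (0.32) missed the threshold, which left 11 of 17 ATPase and non-ATPase subunits called higher.

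The 3 Psmd genes that encode dedicated assembly chaperones of the 19S base, and not subunits of the finished cap, did not pass the test. Psmd5 had 37.4 and 33.0 CPM in KO against 35.4 and 47.8 in WT (log2 change −0.23, 95% interval −0.62 to 0.15). Psmd9 had 12 and 9.68 CPM against 9.25 and 12.6 (0.01, interval −0.54 to 0.56), and Psmd10, also known as gankyrin, 15.5 and 16.4 against 15.7 and 15.1 (0.05, interval −0.36 to 0.46). The genotypes overlapped in all 3. With 42 to 209 footprints per library their intervals were wider than those of the constitutive subunits, and those of Psmd9 and Psmd10 reached the changes of Psmc2 and Psmc6. In a list of 10 core and cap assembly factors that includes these 3, 9 were tested, 1 was called higher and the median was 0.05. Of all transcripts, 19.9% were called higher. The list member called was Pomp, which matures the core (79.4 and 82.1 CPM in KO, 59.5 and 55.9 in WT, log2 0.48, edgeR adjusted p = 0.0120). Psmg1, the first-acting partner chaperone of the alpha ring, had a log2 change of 0.44 (edgeR adjusted p = 0.0749), and its partner Psmg2 one of −0.04.

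Footprint density also allowed levels to be set against each other, as CPM per kb of coding region. Non-ATPase subunits were the most even of the subunit classes. Their densities ran from 86.1 to 137 in KO replicate 1 and from 61.2 to 91.7 in WT replicate 1, with a coefficient of variation of 13.0% to 14.6% across the 11 genes in the 4 libraries. Over the 7 alpha genes it was 19.7% to 26.8%, over the 7 beta genes 22.9% to 29.4% and over the 6 ATPases 17.3% to 24.3%. Core genes were more densely covered than cap genes, with medians of 192 and 195 (alpha) and 233 and 236 (beta) in KO against 138 and 150 (ATPases) and 111 and 113 (non-ATPases). Constitutive core genes also had shorter coding regions, from 546 nt (Psmb2) to 774 nt (Psmb7). Those of the cap subunits ran from 873 nt (Psmd14) to 2802 nt (Psmd1). Class and length therefore cannot be told apart in this difference. The chaperones stood much lower, at medians of 22.7 to 24.4 over the 4 libraries. The order of the classes was the same in WT, at lower levels for the subunits, and neighbouring subunit classes overlapped gene by gene.

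**Figure D3:**
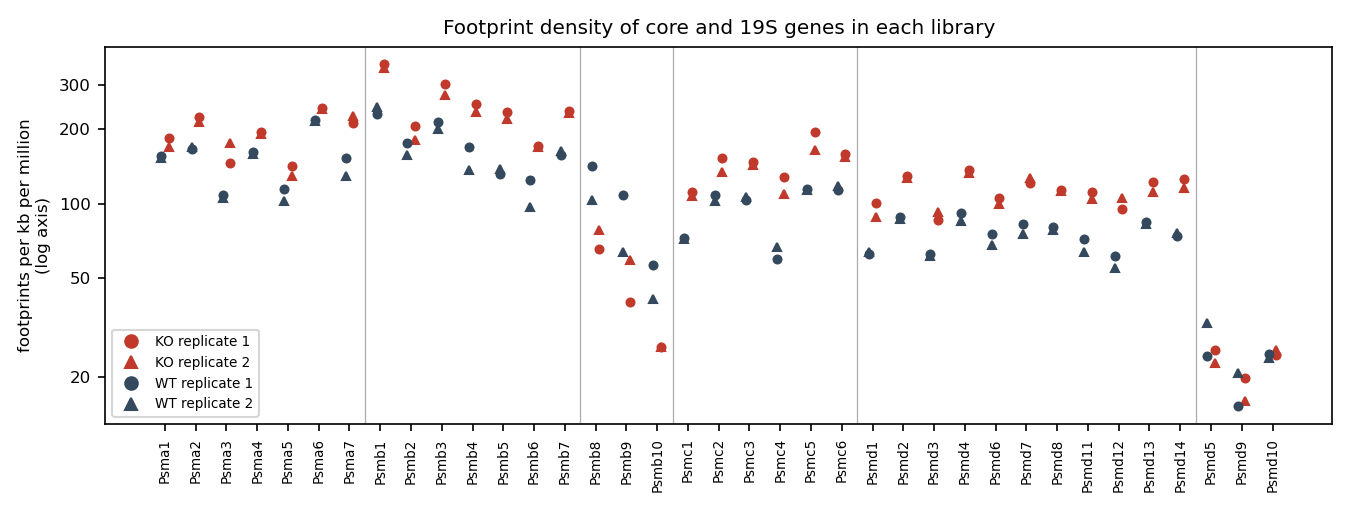
TMM-scaled coding footprints in CPM per kb (log axis) of each core and 19S gene in the 4 libraries, with vertical lines between alpha, beta, immunosubunit, ATPase, non-ATPase and chaperone genes; circles are replicate 1 and triangles replicate 2. KO points lie above WT points for all 31 constitutive subunits, below them for the 3 immunosubunits and among them for the 3 chaperones.

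The alternative caps fell into 2 groups. Psme4, which encodes the large cap protein PA200, had 132 and 119 CPM in KO and 80.8 and 73.5 in WT (1.62-fold higher, log2 change 0.70, SE 0.124, edgeR adjusted p = 0.00219). Psme3, the nuclear PA28 gamma, had 39.6 and 42.4 CPM against 29.3 and 28.4, a log2 change of 0.51 (edgeR adjusted p = 0.0168). Both KO libraries were above both WT libraries for these 2 genes, as in 35.4% of all transcripts. Psme1 and Psme2, which encode PA28 alpha and beta and are known to be induced by interferon gamma together with the immunosubunits, had lower values in KO without passing the test. Psme1 had 75.5 and 90.8 CPM in KO against 112 and 101 in WT (log2 change −0.36, 95% interval −0.66 to −0.05, edgeR adjusted p = 0.0612). Psme2 had 62.8 and 72.2 CPM against 79.4 and 74.9 (−0.19, interval −0.48 to 0.10). Psme2b, a near copy of Psme2 with which it may share reads, had 86.9 and 107 against 112 and 106 (−0.17), so its values and those of Psme2 are uncertain.

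Psme1 passed when KO replicate 2 was left out (−0.49) and with library totals (−0.53). Psme3 lost its call without KO replicate 2 (0.46), without WT replicate 1 (0.52) or 2 (0.49), with DESeq2 (0.52) and with library totals (0.34). The proteasome inhibitor protein gene Psmf1 had 31.9 and 23.3 CPM in KO against 20.4 and 28.2 in WT, and the groups overlapped (log2 change 0.20, interval −0.27 to 0.68). The last member, Psmc3ip, matches the name pattern but encodes a recombination factor and no proteasome subunit. Its counts were 9 and 6 in KO and 12 and 11 in WT, and it was not called.

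Summed by class and given as shares of all coding footprints, without TMM scaling, the 14 constitutive core genes took 0.196% in both KO libraries and 0.167% and 0.152% in WT. The 20 Psmc and Psmd genes took 0.267% and 0.261% against 0.208% and 0.196%, without Psmc3ip. The 3 immunosubunits together took 0.00879% and 0.0111% against 0.0236% and 0.0154%, which is 1.96-fold lower in KO. The summed footprints of Psme1, Psme2 and Psme2b were 0.0209% and 0.0259% against 0.0328% and 0.0293%, and those of Psme3 and Psme4 0.0159% and 0.0155% against 0.0120% and 0.0105%. None of these 5 sums overlapped between genotypes, but that of all 5 Psme genes did, at 0.0368% and 0.0414% in KO against 0.0448% and 0.0398% in WT. On this scale the core sum was 1.23-fold and the 19S sum 1.31-fold higher in KO.

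**Figure D4:**
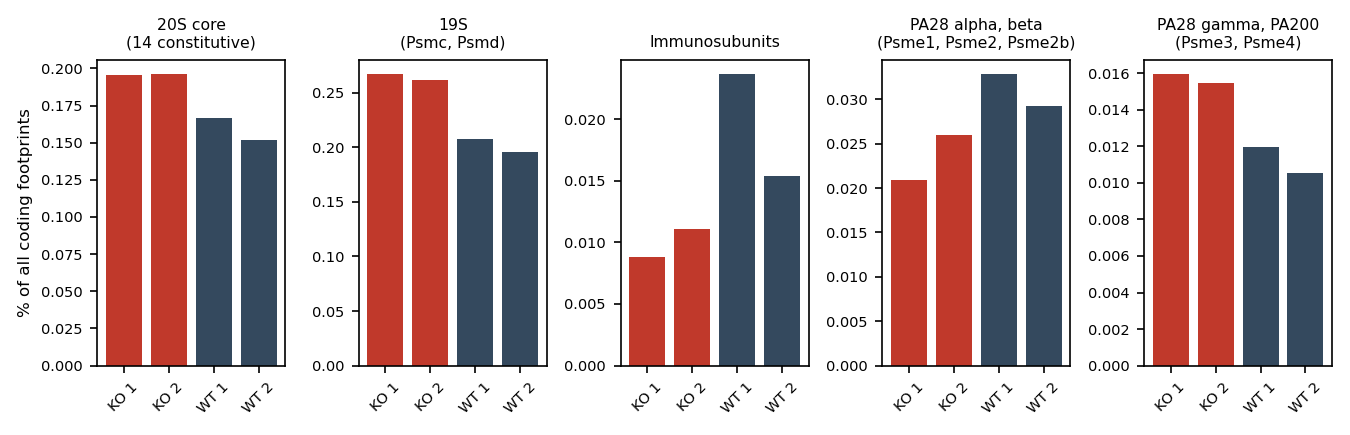
Percentage of all coding footprints held by 5 classes of proteasome genes in each KO (red) and WT (dark) library; each panel has its own axis from 0. Core, 19S and Psme3 with Psme4 are higher in both KO libraries, and the immunosubunits and Psme1, Psme2 and Psme2b are lower.

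Genes that work with the proteasome rose in part, and their counts stand beside the 19.9% of all transcripts called higher and 19.1% called lower. Of 7 proteasome-bound proteins outside the name pattern, 4 were called higher and 3 were not called, with a median log2 change of 0.41. Adrm1, a ubiquitin receptor of the cap, had 113 and 112 CPM in KO against 68.6 and 59.3 in WT, a log2 change of 0.81. The cap-bound deubiquitinase Uchl5 rose by 0.72 and the small lid subunit Shfm1 by 0.59, while the second cap-bound deubiquitinase, Usp14, just missed (0.33, edgeR adjusted p = 0.0508). Of 12 shuttle and recruitment factors, 6 were called higher and 1 lower. Rad23b, a shuttle that carries ubiquitinated proteins to the cap, had 185 and 212 CPM against 116 and 102 (log2 0.86), and Zfand5, a proteasome-binding zinc finger protein, 74.8 and 68.7 against 37.9 and 41.2 (0.86). Vcp, the ATPase that extracts ubiquitinated proteins from complexes, rose by 0.42. The autophagy receptor Sqstm1 was the gene called lower (172 and 173 CPM in KO, 225 and 216 in WT, log2 −0.35, edgeR adjusted p = 0.0302).

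In the list of ubiquitin genes and conjugating enzymes, 11 of 12 were tested, 8 were called higher and 3 were not called. Rps27a, whose product is ubiquitin fused to a ribosomal protein, had 384 and 357 CPM in KO against 117 and 125 in WT, a log2 change of 1.61. Ubb, which encodes ubiquitin repeats alone, had a log2 change of 0.10 and did not pass. The ubiquitin-activating enzyme Uba1 had 735 and 723 CPM in KO against 478 and 435 in WT, a log2 change of 0.68, and the conjugating enzymes Ube2d3 (1.06) and Ube2n (1.02) rose more. Among 12 transcriptional regulators linked to proteasome genes, 3 were called higher and 9 were not called, a share near the 19.9% of all transcripts, so the count says nothing particular of the list. Nfe2l1 itself had a log2 change of −0.10 (edgeR adjusted p = 0.530), whereas its relatives Nfe2l3 (57.5 and 60.2 CPM against 29.3 and 26.6, log2 1.07) and Nfe2l2, the regulator of antioxidant genes (148 and 145 against 67.9 and 80.1, log2 0.99), rose, with Stat3 (0.34).

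Genes of the MHC class I pathway and of interferon signalling had no member called higher among 20, and 7 were called lower, compared with 19.1% of all transcripts, with a median log2 change of −0.28. Of the 20, 4 had values above 0, among them the endoplasmic reticulum chaperones Calr (0.32), Canx (0.30) and Pdia3 (0.30), at edgeR adjusted p of 0.0555, 0.0534 and 0.0605. In the RefSeq table of GRCm38.p6, Psmb9, Tap1, Psmb8 and Tap2 follow each other on chromosome 17. The peptide transporter genes had 193 and 179 CPM in KO against 276 and 221 in WT for Tap1 (log2 −0.42, edgeR adjusted p = 0.0325) and a log2 change of −0.38 for Tap2 (edgeR adjusted p = 0.0805). Tapbp, which couples the transporter to class I molecules, had 242 and 238 against 382 and 356 (−0.62). On the signalling side the interferon gamma receptor gene Ifngr1 (108 and 96.8 CPM against 167 and 172, log2 −0.73), its partner Ifngr2 (−0.67), the kinase Jak2 (−0.79), the transcription factor Irf1 (−0.70) and the class I activator Nlrc5 (−0.68) were called lower. Stat2 (−0.22), Irf9 (−0.20) and B2m (−0.21) did not pass, and in each of these 3 WT replicate 1 was the highest library.

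Some immune cell markers were also called lower, and the counts stand beside the 19.1% of all transcripts called lower. Of 5 general leukocyte markers 2 were called lower (Ptprc −0.61, Cd52 −0.50), and their summed share was 0.0328% and 0.0369% in KO, compared with 0.0508% and 0.0512% in WT. Of 5 T cell markers, Trdc was listed in no library, 2 of the 4 tested were called lower (Cd3e −2.57, Cd3g −2.48), and Cd3d (−0.75) and Thy1 (−0.04) were not. The T cell sum of 0.0206% and 0.0208% against 0.0314% and 0.0263% is mostly Thy1, with 954 and 889 counts in KO and 1259 and 895 in WT, and so says little of the Cd3 genes. In the Langerhans cell and MHC class II list 4 of 6 were called lower and Epcam was called higher. The Langerhans cell marker Cd207 just missed (−0.45, edgeR adjusted p = 0.052). The sums of this list were 0.349% and 0.386% in KO against 0.752% and 0.777% in WT. Of 5 macrophage markers 3 were called lower, with sums of 0.0924% and 0.0772% against 0.128% and 0.161%. None of 3 endothelial markers was called. The part of these cells in the fall of Psmb8, Psmb9 and Psmb10 was not tested.

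**Figure D5:**
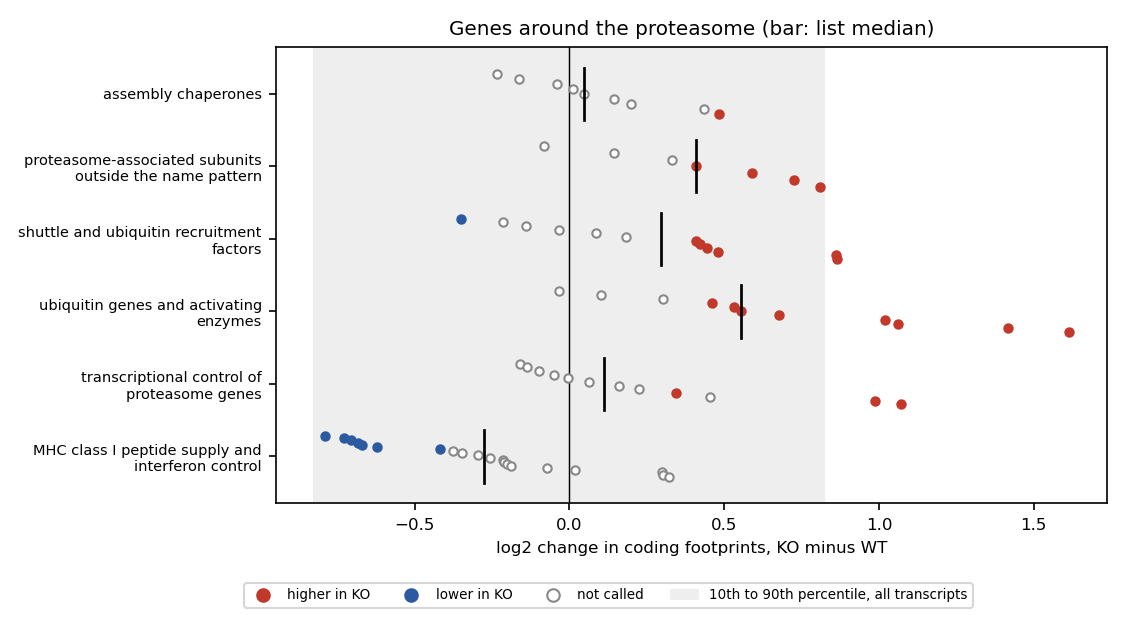
Log2 change in coding footprints (KO minus WT) of the tested genes in 6 lists around the proteasome, coloured by call, with the list median as a bar; the grey band runs from the 10th to the 90th percentile of all transcripts. Medians lie between 0.05 and 0.55 for the first 5 lists and at −0.28 for the MHC class I and interferon list.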

How the data were processed

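The 4 ribosome profiling libraries were grouped by their titles. Per the file headers, the authors deposited raw counts of footprints per transcript region, mapped with mm9 annotations. CASAVA 1.8, TopHat2 2.0.10, Bowtie2 2.2.6 and the builds mm9 and hg19 stand in the submitters' processing notes without roles, and the sources used here do not give how multiply matching reads were treated. Counts are listed only above a coding density of 0.01 per nt. The table described as short footprints is byte-identical to this one and was not used, so the footprint length class is unknown. The 4 rows without a symbol (0.00456% to 0.00761% of coding counts) were left out. Members and lists were chosen with earlier results of these data known.

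Transcripts listed in all 4 libraries with at least 10 counts in at least 2 (10951) were fitted with edgeR 4.0.16 (quasi-likelihood test, TMM factors 0.928, 0.959, 1.09 and 1.03, R 4.3.3), with Benjamini-Hochberg adjustment over all and a threshold of 0.05. The SE and 95% interval come from the test's p. DESeq2 1.42.0 was an alternative. The script was tested on simulated data, with changes of log2 0.5, 1.0 and 2.0 put into 67, 67 and 66 of 10925 transcripts. Of these changes, 7.46%, 80.6% and 95.5% were called. Far fewer transcripts were changed there than were called here, so these percentages need not hold for these data. A member that was not called cannot be taken as unchanged. Precision is limited by counts, with a median per member of 363 to 585, and intervals cover only the spread between these libraries. Values per library were given for catalytic, immune and cap genes and the 3 largest and smallest changes of each subunit class, and of other lists for up to 3 genes or an exception; further genes named were chosen after their values were seen. RNA-seq libraries were not analysed here, and some genes of the lists are not reported here.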

Additional observations from a re-analysis of the deposited data

How the results depend on the processing

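Members called higher numbered 28 and ranged from 19 to 28 over 9 alternatives, and members called lower numbered 3 and ranged from 2 to 4. With library totals alone, 11 of 17 cap subunits were called higher in place of 17, and the members Psma6 (−0.0053), Psmd9 (−0.16) and Psmd10 (−0.12), none of them called, changed sign. DESeq2 called 1491 transcripts higher and 1176 lower, against 2183 and 2092. The uncalled Psmd9 and Psmf1 changed sign without KO replicate 1 (−0.15 and −0.043) and without WT replicate 1 (−0.22 and −0.032), and ranged over the 4 refits that leave out 1 library from −0.22 to 0.24 and from −0.043 to 0.44. Without a minimum count 44 of 44 members were on the same side of the threshold, and with unlisted counts at 0 43 were. With the replicate number as a block, 2211 transcripts were higher and 2125 lower, and 28 and 3 members; it changed the call of no member. The deviations of replicates 1 and 2 correlated across transcripts at r = −0.0053 between genotypes, so no deviation shared by replicate number was seen. The labels do not say whether the numbers pair libraries, and this value cannot decide it. Class sums and density ratios kept their direction under each alternative run; without Psme2b, an alternative chosen after seeing the data, the sum of the Psme genes had a log2 change of −0.037 in place of −0.11. Depth limits the chaperones, Psmf1 and Psmc3ip most, whose counts ran from 6 to 209.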

Other observations

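Footprints outside the coding regions of these genes were few, and 5′ UTR counts were higher in KO. Summed over the 41 members with an annotated 5′ UTR they numbered 310 and 307 in KO and 136 and 100 in WT, which is 1.38% and 1.47% of the coding footprints of these members in KO against 0.632% and 0.643% in WT. Over all transcripts the percentages were 1.45% and 1.69% in KO and 1.09% and 0.996% in WT, so the direction was not particular to proteasome genes. In 32 of the 41 members every library had fewer than 10 such footprints. The ATPase gene Psmc1 alone held 99 and 82 of them in KO and 37 and 34 in WT, in a 5′ UTR of 210 nt, or 18.5% and 16.9% of its coding footprints against 8.49% and 10.4%. Psmd14 had 41 and 42 against 24 and 11, Psmc3 30 and 34 against 12 and 7, and Psme3 23 and 20 against 10 and 11. Without Psmc1 the sums were 211 and 225 against 99 and 66. No test was run on these counts. In 3′ UTRs no member had more than 4 footprints in any library, and the sums were 24 and 28 in KO and 11 and 14 in WT, or 0.0953% and 0.121% of coding footprints against 0.0468% and 0.0817%. Over all transcripts the 3′ UTR percentages went the other way, at 0.57% and 0.611% in KO and 0.702% and 0.669% in WT.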
